A study of Mus musculus with 4 samples.

Results

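The transcription regulators Foxc2, Meox2, Dlx2, Lhx8, Bnc1, Scx and Eya4 are 7 of the 12394 genes with a level on the arrays of mouse mammary fibroblasts described here. They were selected on differences between these same arrays, so that their levels and fold changes are given as a description and no test is attached to them. All 8 probe sets that the platform annotation assigns to 1 of these symbols alone, out of 22690 on the array, are reported: 1416693_at for Foxc2, 1424233_at and 1424234_s_at for Meox2, 1448877_at for Dlx2, 1427300_at for Lhx8, 1424890_at for Bnc1, 1428983_at for Scx and 1456647_a_at for Eya4. Of the probe sets shared by several genes, 0 name any of them.

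Primary fibroblasts were cultured from mammary glands of female FVB/N mice aged 9 weeks and were hybridised at the second passage, with 1 array for each of 4 groups. The PyMT Ets2-null array came from PyMT;Fsp-cre;Ets2db/loxP mice, the PyMT Ets2-present array from PyMT;Ets2db/loxP mice, the normal Ets2-null array from Fsp-cre;Ets2db/loxP mice and the normal Ets2-present array from Ets2db/loxP mice. PyMT is the polyoma middle T oncogene, driven in epithelial cells by the MMTV promoter. Whether an array holds RNA of 1 mouse or of several is not given in the sources used here. Every group carried the knockout allele Ets2db beside the loxP allele, and an Ets2-present fibroblast therefore had 1 intact copy of Ets2. Cre was driven by the promoter of Fibroblast Specific Protein 1 and was present in both Ets2-null groups and in neither Ets2-present group, so that Cre and loss of Ets2 cannot be told apart. With 1 array per group, each difference below is between 2 arrays, has no replicate check and may be technical in part.

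The 7 regulators belong to families that pattern the embryo and that stay active in restricted sets of adult cells. Foxc2 is a forkhead factor of lymphatic and mesenchymal development, Meox2, Dlx2 and Lhx8 carry a homeodomain, Scx is the basic helix-loop-helix factor of tendon progenitors, Bnc1 is a zinc finger protein known from keratinocytes, mesothelium and germ cells, and Eya4 has no DNA-binding domain of its own and acts with homeobox factors of the sine oculis family. Fibroblasts of different body sites keep distinct sets of developmental factors in culture. Ets2 itself binds DNA around a GGAA core, read as TTCC on the opposite strand.

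Promoter sequence was found in the RefSeq table (build GRCm38.p6) for 5 of the 7 genes, Dlx2, Lhx8, Bnc1, Meox2 and Eya4, and covers 250 bases before to 50 bases after the start. Shown are 3 of them: Lhx8 and Dlx2, whose levels differed in 1 direction with loss of Ets2 in both PyMT and normal fibroblasts, and Bnc1, which had the largest differences between PyMT and normal arrays. Each is written 5′ to 3′ on the strand of its gene, and capitals mark GGAA or TTCC.
Lhx8: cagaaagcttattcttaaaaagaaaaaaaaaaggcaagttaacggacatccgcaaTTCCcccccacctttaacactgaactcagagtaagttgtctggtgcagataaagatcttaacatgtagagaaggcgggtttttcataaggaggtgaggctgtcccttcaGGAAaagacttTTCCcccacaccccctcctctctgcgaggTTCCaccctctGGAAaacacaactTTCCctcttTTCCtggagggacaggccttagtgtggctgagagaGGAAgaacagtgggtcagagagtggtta
Dlx2: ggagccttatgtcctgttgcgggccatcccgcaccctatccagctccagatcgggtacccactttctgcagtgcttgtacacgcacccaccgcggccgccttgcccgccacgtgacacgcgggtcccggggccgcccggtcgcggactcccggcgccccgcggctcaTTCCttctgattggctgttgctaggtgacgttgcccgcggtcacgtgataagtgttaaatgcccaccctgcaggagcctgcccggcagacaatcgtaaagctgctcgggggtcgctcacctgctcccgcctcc
Bnc1: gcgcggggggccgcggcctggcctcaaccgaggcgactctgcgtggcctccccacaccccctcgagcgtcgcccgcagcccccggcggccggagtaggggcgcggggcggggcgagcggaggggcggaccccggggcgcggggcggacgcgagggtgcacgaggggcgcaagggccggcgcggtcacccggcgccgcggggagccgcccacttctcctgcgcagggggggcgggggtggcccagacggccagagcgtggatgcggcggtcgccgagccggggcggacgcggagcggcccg
The Lhx8 window (chr3:154330511-154330810, minus strand) held 8 cores and had a GC content of 47.0%. In the Dlx2 window (chr2:71546705-71547004, minus strand) there was 1 core, at a GC content of 66.3%. No core lay in the Bnc1 window (chr7:81992250-81992549, minus strand), where 83.3% of bases were G or C. The Meox2 window held 5 cores, and the windows of the 2 Eya4 starts held 1 and 3. Of all 32851 promoter windows in the table, 96.0% held GGAA on either strand, with a median of 3, and the median GC content was 52.7%. The longer form CCGGAA, which contains the core, was in 0 of the windows of these 5 genes, against 14.9% of all windows. CAGGAA, which also contains the core, occurred 2 times in the Lhx8 window and was in 30.6% of all windows. These matches describe the letters of the windows and nothing was drawn from them about binding.

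Levels are log2 values that the authors computed by RMA (Robust Multichip Average), a method that corrects, normalizes and summarizes probe intensities. A value under 4.63, the 40th percentile of the whole table, is called low here, and 8687 genes with at least 1 value at or above it were kept, all 7 regulators among them. The arrays had medians of 5.63 to 5.74 and correlated at 0.959 to 0.985, with the 3 lowest correlations all those of the PyMT Ets2-null array. That array also read higher for 3 probe sets of 18S ribosomal RNA, by a mean of 1.47 against PyMT Ets2-present, 1.69 against normal Ets2-null and 1.55 against normal Ets2-present, and for 14 probe sets of bacterial spike-ins, by 0.49 against PyMT Ets2-present, 0.69 against normal Ets2-null and 0.57 against normal Ets2-present. The part of this in the differences below was not tested. All 11 fibroblast markers were above 4.63 in every array, with medians from 10.8 to 12.5, but some differed between arrays. Lum was at 5.82 in PyMT Ets2-null, 6.73 in PyMT Ets2-present, 11.62 in normal Ets2-null and 9.26 in normal Ets2-present fibroblasts. With PyMT, 1 was higher and 3 were lower by at least 2-fold without Ets2 (9.69% and 11.2% of kept genes). With Ets2 these counts were also 1 and 3 (5.42% and 6.23%). The part of these markers in the differences was not tested. Of 10 epithelial markers, 6 to 8 were low in each array, Krt8, Cdh1, Cldn4 and Elf5 in all of them, while Krt5 was above 4.63 in every array (4.77 to 5.53) and Krt14 (4.85) and Epcam (5.10) only in PyMT Ets2-null. The summed level of a list is the log2 of its summed unlogged levels, so that its brightest markers weigh most. For the epithelial list it was 8.45 in PyMT Ets2-null, 8.25 in PyMT Ets2-present, 8.27 in normal Ets2-null and 8.68 in normal Ets2-present fibroblasts, and its part in the differences was not tested. The summed level of 8 macrophage markers was 9.52 in PyMT Ets2-null, 10.0 in PyMT Ets2-present, 8.53 in normal Ets2-null and 8.67 in normal Ets2-present fibroblasts, higher with PyMT. Lyz2 was the brightest of them in every array, and 3 to 5 of the 8 were low in each. Of the 7 kept, 6 were higher and 1 was lower with PyMT in Ets2-present fibroblasts, where 49.5% of kept genes were higher. Adgre1 and Mrc1 were kept only through the PyMT Ets2-present array, so that the filter fixed their direction there. In Ets2-null fibroblasts 4 were higher and 3 lower, where 52.4% of kept genes were higher. Ptprc was kept only through the PyMT Ets2-null array and Cd68 only through the normal Ets2-null array, which fixed their directions there. Nothing is read from these counts. The part of these markers in the differences was not tested. Ets2 was at 11.22 in PyMT Ets2-null and 11.21 in PyMT Ets2-present fibroblasts, and at 11.89 in normal Ets2-null and 11.86 in normal Ets2-present fibroblasts. Where its only probe set sits with respect to the floxed exons could not be settled, so these levels check nothing.

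In place of replicate spread, the disagreement between the 2 brightest probe sets of the same gene was used, over 3378 genes. Its SD was 0.49 for the Ets2 difference in PyMT fibroblasts, 0.37 for that in normal fibroblasts, 0.38 for the PyMT difference with Ets2 and 0.52 without Ets2, over the 2656 genes with no low value. Over the 722 genes with a low value it was 1.14, 0.76, 0.83 and 1.14 in the same comparisons. It covers the probes only, not the variation between cultures.

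Foxc2, Dlx2 and Meox2 were higher in both PyMT arrays than in both normal arrays, while Bnc1 and Scx were lower in both PyMT arrays than in both normal arrays. Lhx8 was higher in both Ets2-null arrays than in both Ets2-present arrays. Eya4 followed neither factor alone.

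**Figure D1:**
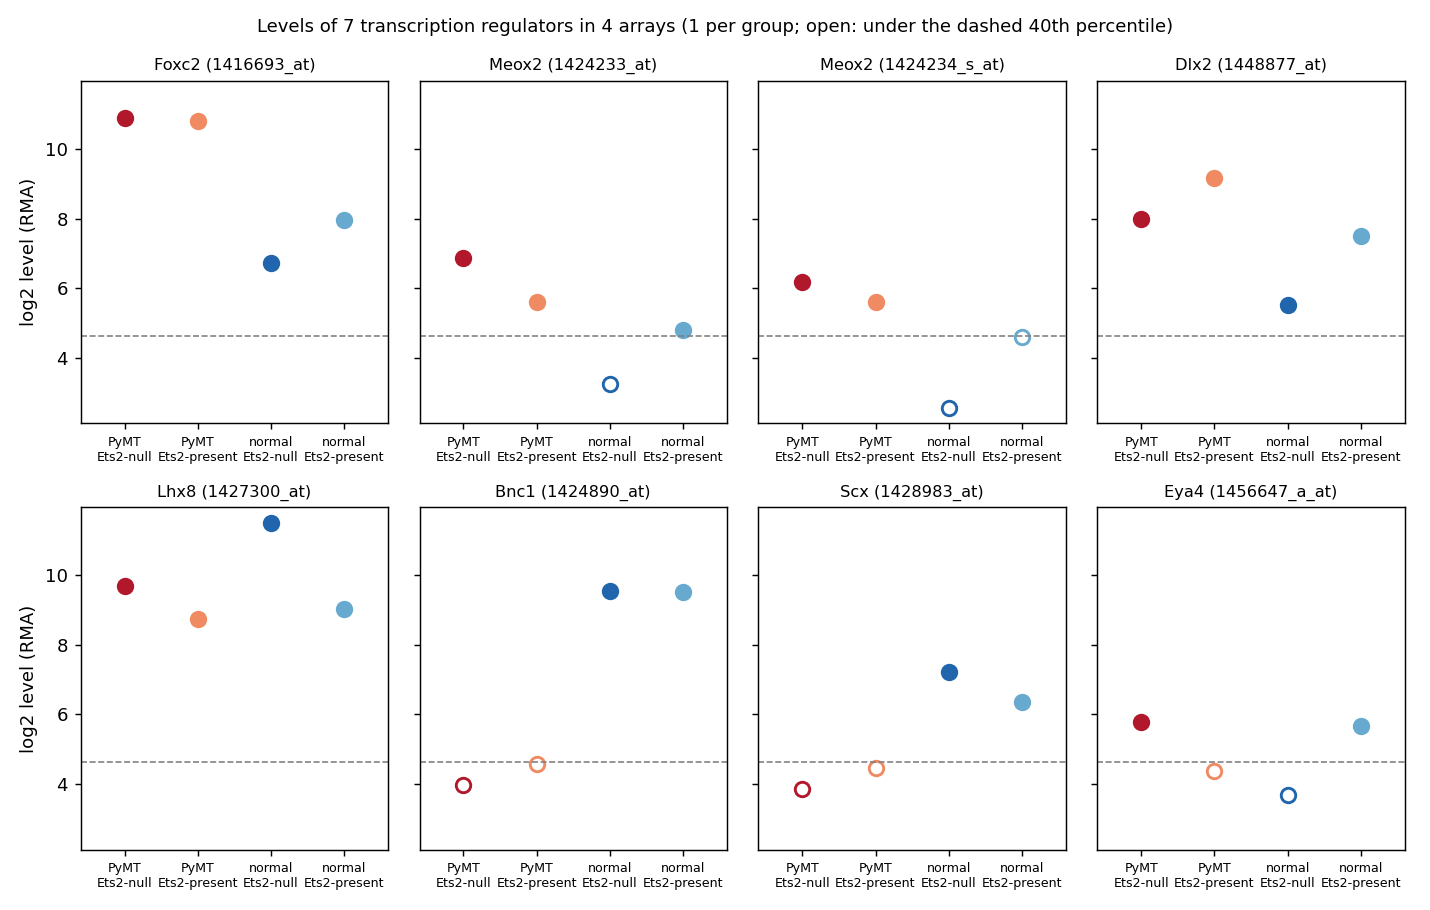
Log2 RMA level (vertical axis) of each of the 8 probe sets in the 4 arrays (horizontal axis), 1 point per array, with low values drawn open and the dashed line at 4.63. The normal Ets2-null array is the lowest point for Foxc2, Meox2, Dlx2 and Eya4 and the highest for Lhx8, Bnc1 and Scx.

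Foxc2, which controls the development of lymphatic vessels and their valves and is also a regulator of fat cells, had levels of 10.90 in PyMT Ets2-null, 10.82 in PyMT Ets2-present, 6.71 in normal Ets2-null and 7.96 in normal Ets2-present fibroblasts. Both PyMT arrays were high and nearly equal, and the normal arrays lay well below them. The PyMT array was 18.2-fold higher than the normal array without Ets2 and 7.26-fold higher with Ets2, which ranked 2 and 17 from the highest among the 8687 kept genes. Loss of Ets2 went with a difference of 0.07 on the log2 scale in PyMT fibroblasts, under the probe disagreement, and of -1.25 (2.38-fold lower) in normal fibroblasts, where the Ets2-null array was the lowest of the 4. Foxf1 and Foxl1, the forkhead genes beside Foxc2 on chromosome 8, were low in all 4 arrays. In bulk RNA such as this, fewer cells of a type and less RNA per cell cannot be told apart.

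Because Foxc2 is expressed in lymphatic endothelium and in fat, markers of both were read. Of 9 endothelial and lymphatic markers on the array, 7 to 8 were low in each array, and Pecam1, Cdh5, Tie1, Emcn, Lyve1 and Prox1 were low in all 4. Their summed level on the log2 scale was 7.23 in PyMT Ets2-null, 7.37 in PyMT Ets2-present, 8.37 in normal Ets2-null and 7.50 in normal Ets2-present fibroblasts, and its part in the Foxc2 differences was not tested. Above the low level were Flt4, the receptor of lymphatic endothelium, with 5.57 in PyMT Ets2-present, 7.22 in normal Ets2-null and 5.50 in normal Ets2-present fibroblasts, Kdr with 6.80 in normal Ets2-null and 6.12 in normal Ets2-present fibroblasts, and Tek with 5.23 in PyMT Ets2-null fibroblasts. Of 5 adipocyte markers, Adipoq and Lep were low in every array. Fabp4, Pparg and Cebpa were at least 2-fold higher in PyMT than in normal fibroblasts with and without Ets2. Of all kept genes, 5.42% were so with Ets2 and 9.69% without. Fabp4, a fatty acid carrier, had levels of 10.00 in PyMT Ets2-null, 9.96 in PyMT Ets2-present, 6.82 in normal Ets2-null and 7.64 in normal Ets2-present fibroblasts, the array order of Foxc2. The summed level of the list was 10.7 in PyMT Ets2-null, 10.6 in PyMT Ets2-present, 8.34 in normal Ets2-null and 8.71 in normal Ets2-present fibroblasts, and its part in the Foxc2 difference was not tested.

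Dlx2, a distal-less homeobox factor of craniofacial mesenchyme and forebrain interneurons, measured 7.99 in PyMT Ets2-null, 9.16 in PyMT Ets2-present, 5.51 in normal Ets2-null and 7.49 in normal Ets2-present fibroblasts. The 2 Ets2-null arrays lay below their Ets2-present partners, and the 2 PyMT arrays above their normal partners. Without Ets2 it was 2.25-fold lower in PyMT and 3.92-fold lower in normal fibroblasts, log2 differences of -1.17 and -1.97. In normal fibroblasts this ranked 9 from the lowest of the kept genes. With PyMT it was 5.55-fold higher without Ets2 and 3.19-fold higher with Ets2. None of its 4 values was low. Dlx1, its neighbour on chromosome 2, was low in all 4 arrays, with 4.59 in PyMT Ets2-null, 3.26 in PyMT Ets2-present, 3.80 in normal Ets2-null and 3.36 in normal Ets2-present fibroblasts.

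Meox2, a homeobox factor of limb muscle development and vascular smooth muscle, is read by 2 probe sets. The brighter, 1424233_at, gave 6.88 in PyMT Ets2-null, 5.61 in PyMT Ets2-present, 3.25 in normal Ets2-null and 4.78 in normal Ets2-present fibroblasts. The other, 1424234_s_at, whose suffix marks probes that can match several transcripts, gave 6.19 in PyMT Ets2-null, 5.61 in PyMT Ets2-present, 2.55 in normal Ets2-null and 4.60 in normal Ets2-present fibroblasts. Both put the arrays in the same order, with PyMT Ets2-null highest and normal Ets2-null lowest. For the brighter probe set, Meox2 was 2.40-fold higher without Ets2 in PyMT fibroblasts but 2.89-fold lower without Ets2 in normal fibroblasts, and the other gave log2 differences of 0.58 in PyMT and -2.05 in normal fibroblasts. Between PyMT and normal fibroblasts the log2 difference was 3.63 without Ets2 in each probe set, and with Ets2 it was 0.83 in the brighter and 1.002 in the other, so that with Ets2 only 1424234_s_at passed 2-fold. The level of 4.78 was the closest to the low level among values above it, and 4.60 the closest among values under it. With low values raised to 4.63, the Ets2 difference in normal fibroblasts was -0.15 in the brighter probe set and 0 in the other, so that it rests on levels near the bottom of the scale. The PyMT difference without Ets2 was then 2.25 in the brighter and 1.56 in the other. Of 8 skeletal muscle markers, 5 to 7 were low in each array, Myod1, Myf5, Ckm and Mylpf in all of them, and the summed level of the list was 7.72 in PyMT Ets2-null, 7.92 in PyMT Ets2-present, 6.95 in normal Ets2-null and 7.67 in normal Ets2-present fibroblasts. Myog (5.33) and Des (4.86) were above the low level in the PyMT Ets2-null array alone, the array in which Meox2 was highest. All 4 kept muscle markers were higher with PyMT in Ets2-null fibroblasts, with a median of 1.04, against 52.4% of all kept genes. By at least 2-fold it was 3 of them (9.69% of kept genes), and 0 once low values were raised. Myog and Des were kept only through the PyMT Ets2-null array, so that the filter fixed their direction. Tnni2 was compared between low values (3.89 in PyMT Ets2-null and 2.85 in normal Ets2-null fibroblasts). Of the markers not kept, Myf5 (0.17) and Mylpf (0.05) were higher and Myod1 (-0.56) and Ckm (-0.19) lower. Nothing is read from this count. The part of these markers in the Meox2 differences was not tested. Sostdc1, which lies beside Meox2 on chromosome 12, had 4.99 in PyMT Ets2-null, 3.70 in PyMT Ets2-present, 3.65 in normal Ets2-null and 4.11 in normal Ets2-present fibroblasts.

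Eya4, a coactivator and phosphatase whose human gene is linked to hearing loss, had 5.77 in PyMT Ets2-null, 4.39 in PyMT Ets2-present, 3.69 in normal Ets2-null and 5.66 in normal Ets2-present fibroblasts. The PyMT Ets2-null and normal Ets2-present arrays were high and differed by 0.11, and the remaining arrays were low. Eya4 was thus 2.61-fold higher without Ets2 in PyMT and 3.91-fold lower without Ets2 in normal fibroblasts, and in normal fibroblasts it ranked 10 from the lowest of kept genes. Against normal arrays, the PyMT arrays were 4.22-fold higher without Ets2 and 2.42-fold lower with Ets2. In all 4 comparisons the difference of Eya4 has a low value on its lower side, and with low values raised each stayed past 2-fold, at 2.04-fold to 2.20-fold.

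Lhx8, a LIM homeobox factor of forebrain cholinergic neurons and of tooth and palate mesenchyme, had 9.69 in PyMT Ets2-null, 8.75 in PyMT Ets2-present, 11.51 in normal Ets2-null and 9.02 in normal Ets2-present fibroblasts. The normal Ets2-null array stood above the rest, and the Ets2-present arrays differed by only 0.27, under the probe disagreement. Without Ets2 its level was 1.92-fold higher in PyMT and 5.61-fold higher in normal fibroblasts, log2 differences of 0.94 and 2.49. The value in normal fibroblasts ranked 9 from the highest of kept genes. With PyMT, Lhx8 was 3.53-fold lower without Ets2, and 1.21-fold lower with Ets2. Of 6 Schwann cell and neuronal markers on the array, Sox10, Gad1, Gad2 and Snap25 were low in every array, whereas Tubb3, a tubulin of neurons, was above the low level in all 4 (4.72 to 6.27) and S100b only in PyMT Ets2-null (5.28). The summed level of the list was 7.48 in PyMT Ets2-null, 6.69 in PyMT Ets2-present, 6.03 in normal Ets2-null and 6.57 in normal Ets2-present fibroblasts, and its part in the Lhx8 differences was not tested.

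Bnc1 was at 3.98 in PyMT Ets2-null and 4.57 in PyMT Ets2-present fibroblasts, and at 9.55 in normal Ets2-null and 9.54 in normal Ets2-present fibroblasts. The PyMT arrays were both low, and the normal arrays were high and differed by 0.01. The level with PyMT was 47.3-fold lower without Ets2 and 31.4-fold lower with Ets2, and 30.1-fold and 30.0-fold lower with the low values raised to 4.63. As deposited, these ranked 3 and 4 from the lowest among the 8687 kept genes. The difference of -0.59 between the PyMT arrays lay wholly among low values and was 0 once these were raised. Of the Ets2 differences, that in normal fibroblasts was the smallest of any of the 7 genes.

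Bnc1 is known from mesothelium, and 6 mesothelial markers were on the array. Upk3b and Krt8 were low in all 4 arrays. Wt1, a zinc finger factor of mesothelium, was at 5.40 in PyMT Ets2-null, 6.19 in PyMT Ets2-present, 7.47 in normal Ets2-null and 7.02 in normal Ets2-present fibroblasts, and Krt18, a keratin also on the epithelial list, was at 4.49 in PyMT Ets2-null, 4.23 in PyMT Ets2-present, 6.72 in normal Ets2-null and 8.05 in normal Ets2-present fibroblasts. Both were lower in the PyMT arrays, like Bnc1. Msln was low except in normal Ets2-present fibroblasts (5.37), and Krt19 ran the other way, with 7.21 in PyMT Ets2-null, 7.36 in PyMT Ets2-present, 4.39 in normal Ets2-null and 4.98 in normal Ets2-present fibroblasts. The summed level of the list was 7.93 in PyMT Ets2-null, 8.19 in PyMT Ets2-present, 8.36 in normal Ets2-null and 8.93 in normal Ets2-present fibroblasts, and its part in the Bnc1 difference was not tested. Bnc1 is also known from basal keratinocytes, and Trp63, a defining factor of those cells, had 3.81 in PyMT Ets2-null, 3.32 in PyMT Ets2-present, 6.57 in normal Ets2-null and 4.57 in normal Ets2-present fibroblasts. It was thus above the low level only in the normal Ets2-null array, and lower with PyMT by a log2 difference of -2.76 without Ets2 and -1.26 with Ets2, the second between low values. Krt5 and Krt14, keratins of the same cells, did not share this direction throughout. Krt5 was higher with PyMT, by 0.45 without Ets2 and 0.76 with Ets2. Krt14 was at 1.32 without Ets2 (0.22 with low values raised) and at -0.40 with Ets2, between low values. The part of these markers in the Bnc1 difference was not tested.

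Scx, which in tendon cells activates type I collagen and Tnmd, had 3.86 in PyMT Ets2-null, 4.46 in PyMT Ets2-present, 7.21 in normal Ets2-null and 6.36 in normal Ets2-present fibroblasts. As for Bnc1, the PyMT arrays were low and the normal arrays well above them. With PyMT it was 10.2-fold lower without Ets2 and 3.72-fold lower with Ets2, or 5.99-fold and 3.31-fold with low values raised. Without Ets2 it was 1.81-fold higher in normal fibroblasts, and the difference of -0.60 in PyMT fibroblasts was among low values and under the probe disagreement. The span of Scx on chromosome 15 overlaps that of Bop1 in RefSeq, and Bop1 was at 6.75 in PyMT Ets2-null, 7.13 in PyMT Ets2-present, 6.80 in normal Ets2-null and 7.36 in normal Ets2-present fibroblasts, with no PyMT difference over 0.23 in size.

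In Ets2-null fibroblasts all 7 differed by at least 2-fold between PyMT and normal: Foxc2, Meox2, Dlx2 and Eya4 were higher, against 9.69% of all kept genes, and Bnc1, Scx and Lhx8 were lower, against 11.2%. At 4-fold, the same 4 were higher (1.29% of kept genes) and Bnc1 and Scx were lower (2.21%). In Ets2-present fibroblasts Foxc2 and Dlx2 were at least 2-fold higher with PyMT (5.42% of kept genes), and Bnc1, Scx and Eya4 were lower (6.23%). At 4-fold this left Foxc2 higher (0.84%) and Bnc1 lower (1.12%). The genes were chosen for such differences, so nothing is read from these shares.

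With loss of Ets2, 3 of the 7 differed by at least 2-fold in PyMT and 5 in normal fibroblasts. In PyMT fibroblasts Meox2 and Eya4 were at least 2-fold higher (7.64% of kept genes) and Dlx2 was lower (7.77%), and at 4-fold 0 were higher (0.691%) and 0 lower (0.944%). In normal fibroblasts Lhx8 was at least 2-fold higher (3.02%), and Foxc2, Meox2, Dlx2 and Eya4 were lower (2.41%). At 4-fold Lhx8 was higher (0.288%) and 0 were lower (0.0806%). The median size of the log2 difference was 0.94 over the 7 genes against 0.39 over all kept genes in PyMT fibroblasts, and 1.53 against 0.23 in normal fibroblasts. Nothing is read from these shares or sizes either, since the genes were selected on differences between these same arrays.

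**Figure D2:**
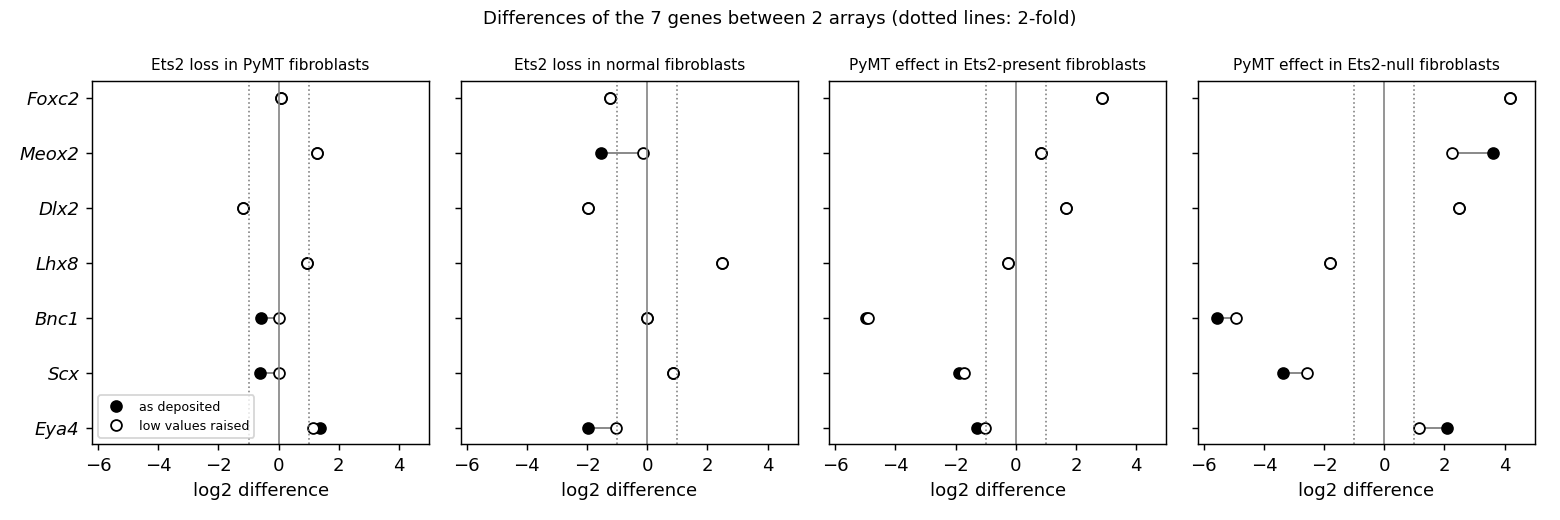
Log2 difference between 2 arrays (horizontal axis) of each gene in the 4 comparisons, as deposited (filled) and with low values raised to 4.63 (open, on top where both coincide); dotted lines mark 2-fold. Foxc2 lies at 4.18 and Bnc1 at -5.57 in the PyMT difference of Ets2-null fibroblasts, and the Meox2 value for Ets2 loss in normal fibroblasts shrinks to -0.15 when low values are raised.

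Subtracting the Ets2 difference in normal fibroblasts from that in PyMT fibroblasts left Foxc2, Meox2 and Eya4 at least 2-fold higher (10.2% of kept genes) and Lhx8 and Scx lower (11.2%). At 4-fold Meox2 and Eya4 remained (1.75% higher), with 0 lower (2.33%). The values were 3.35 for Eya4, 2.80 for Meox2 and 1.32 for Foxc2, and -1.55 for Lhx8 and -1.46 for Scx. With low values raised they were 2.17 for Eya4, 1.42 for Meox2 and -0.85 for Scx. Whether Ets2 loss differed between the 2 settings was not tested, since each value rests on 1 array per group.

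**Figure D3:**
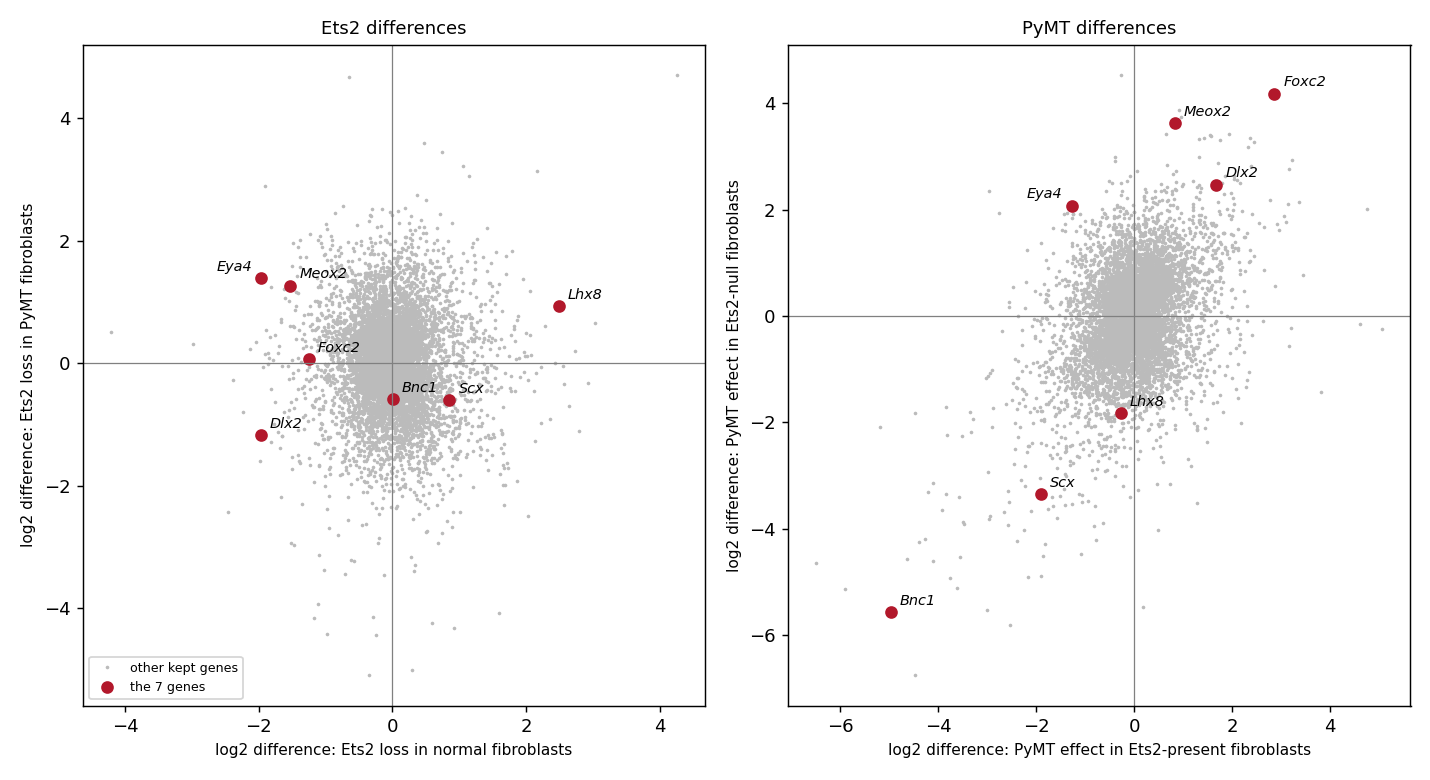
Log2 differences of the 7 genes (red) among the other kept genes (grey): Ets2 loss in PyMT (vertical) against normal fibroblasts (horizontal) on the left, and the PyMT difference in Ets2-null (vertical) against Ets2-present fibroblasts (horizontal) on the right. Eya4 and Meox2 lie in the upper left of the Ets2 panel, and Bnc1 in the lower left of the PyMT panel.

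The normal Ets2-null array held an extreme value in each of the 7 genes. It was lowest for Foxc2, Meox2, Dlx2 and Eya4, a place it took in 26.1% of kept genes, and highest for Lhx8, Bnc1 and Scx, a place it took in 22.1%, though for Bnc1 by only 0.01. The PyMT Ets2-null array was highest for Foxc2, Meox2 and Eya4 (35.1% of kept genes) and lowest for Bnc1 and Scx (32.9%). The PyMT Ets2-present array was highest for Dlx2 (22.8%) and lowest for Lhx8 (22.9%), and the normal Ets2-present array, highest in 20.1% and lowest in 18.04% of kept genes, was at neither end for any of them.

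Other members of the same families were read from lists of related genes. Of 12 kept forkhead genes other than Foxc2, 1 was higher and 11 were lower with PyMT in Ets2-present fibroblasts, where Foxc2 was higher. Of all kept genes, 49.5% were higher there. The median was -0.43 against -0.01 over all kept genes. By at least 2-fold, 0 were higher (5.42% of kept genes) and 2 lower (6.23%), Foxq1 (-1.51) and Foxf2 (-1.22). In Ets2-null fibroblasts 6 were higher and 6 lower, with a median of -0.01 against 0.05 over all kept genes. By at least 2-fold, 1 was higher (9.69% of kept genes), Foxa2 at 1.53, and 4 were lower (11.2%). These were Foxq1 at -2.66, Foxo1, a factor inhibited by insulin signalling, at -2.01, Foxf2 at -1.35 and Foxm1, a factor of dividing cells, at -1.26. With loss of Ets2 in PyMT fibroblasts, Foxa2 (1.51) was at least 2-fold higher (7.64% of kept genes) and Foxo1 (-1.10) lower (7.77%). In normal fibroblasts Foxq1 (1.53) was at least 2-fold higher (3.02%). Foxa2, Foxo1, Foxq1, Foxf2 and Foxm1 were low on the lower side of each of these differences except that of Foxq1 with loss of Ets2. With low values raised, Foxq1 (-2.21), Foxo1 (-1.44) and Foxf2 (-1.002) in the PyMT difference without Ets2 and Foxq1 with loss of Ets2 stayed past 2-fold, and the others did not.

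Of the distal-less, Msx and Meox homeobox genes, 4 were kept beside Dlx2 and Meox2. Dlx3 was at 3.92 in PyMT Ets2-null, 6.28 in PyMT Ets2-present, 3.73 in normal Ets2-null and 3.97 in normal Ets2-present fibroblasts, so that like Dlx2 it was highest in the PyMT Ets2-present array, and the other values were low. Meox1, the nearest relative of Meox2, reached 5.51 in normal Ets2-present fibroblasts and was low in the other 3 arrays, a profile unlike that of Meox2. Among LIM homeobox genes and cofactors 6 were kept beside Lhx8, and Isl1 was at 2.92 in PyMT Ets2-null and 2.92 in PyMT Ets2-present fibroblasts, against 6.33 in normal Ets2-null and 6.49 in normal Ets2-present fibroblasts. That is the order of blocks seen for Bnc1, not Lhx8. Lmo4, a LIM-only cofactor with no low value, was at -1.22 for PyMT in Ets2-null fibroblasts and at -1.07 for loss of Ets2 in PyMT fibroblasts. Of the relatives and partners of Eya4, 4 were kept, and Dach2, a corepressor of the network, was 1.26 higher on the log2 scale with loss of Ets2 in normal fibroblasts, where Eya4 was lower, from a low value (0.93 with low values raised).

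A wider list of 29 kept mesenchymal and limb transcription factors split without a common direction. With PyMT in Ets2-null fibroblasts 12 were higher and 17 lower, 5 and 8 of them by at least 2-fold, against 9.69% and 11.2% of all kept genes. The median was -0.08 against 0.05 over all kept genes. Tbx3 and Tbx5, T-box factors of the limb, were at -2.55 and -2.54 on the log2 scale there and at -2.19 and -1.39 in Ets2-present fibroblasts, and had no low value in any array. In Ets2-null fibroblasts Prrx2 (-2.45) and Tbx1 (-2.32) were the next lowest, and Tfap2a (2.34), Zeb2 (1.37), Nr2f1 (1.24) and Tbx18 (1.05) were the highest. In Ets2-present fibroblasts Sp7, a factor of bone-forming cells, was at 1.55, and Sox5 was at -1.18 and Sox9 at -1.05. By at least 2-fold, 1 was higher and 4 were lower there, against 5.42% and 6.23% of all kept genes. With loss of Ets2 in PyMT fibroblasts 17 were higher and 12 lower, 3 and 5 of them by at least 2-fold, against 7.64% and 7.77% of all kept genes. The median was 0.21 against 0.02 over all kept genes. Sox9, the factor of cartilage cells (1.34), Snai2 (1.19) and Tfap2a (1.15) were higher there, and Sp7 (-3.38), Prrx2 (-2.32), Snai1 (-1.88) and Osr1 (-1.47) were the lowest. In normal fibroblasts 16 were higher and 13 lower with loss of Ets2. By at least 2-fold, 3 were higher and 1 was lower, against 3.02% and 2.41% of all kept genes. These were Tbx1 (1.64), Hlx (1.32) and Tbx5 (1.10), higher, and Sp7 (-1.02), lower. Of the differences named here, those of Tbx1, Tfap2a, Hlx and Sox5 and that of Sp7 in normal fibroblasts have a low value on the lower side and were under 2-fold once low values were raised. Those of Sp7 and Osr1 in PyMT fibroblasts also have one and stayed past 2-fold, at -2.31 for Sp7 and -1.22 for Osr1.

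**Figure D4:**
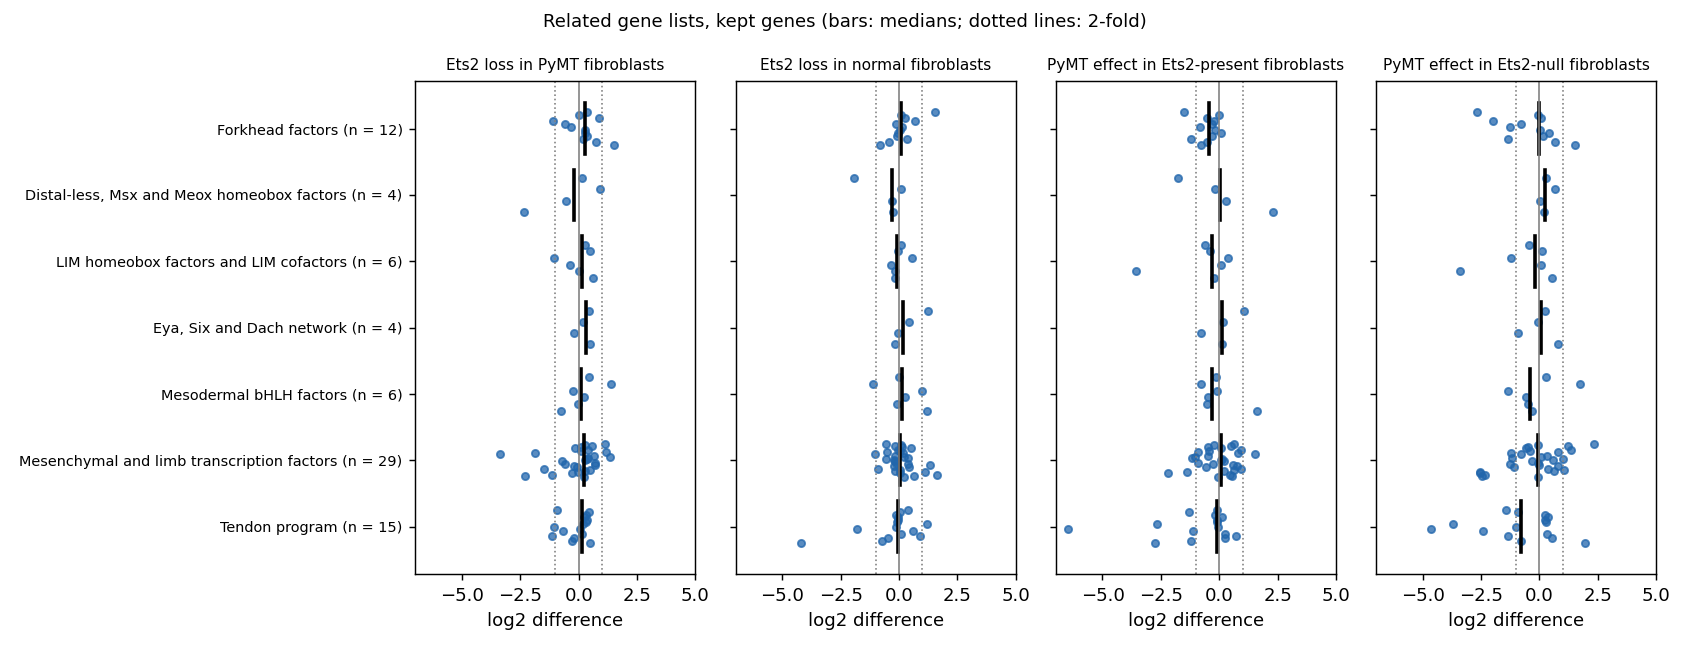
Log2 difference (horizontal axis) of each kept gene of 7 lists in the 4 comparisons, with the 7 regulators left out; black bars are medians and dotted lines mark 2-fold. Medians lie between -0.79, that of the tendon list for PyMT in Ets2-null fibroblasts, and 0.31.

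The tendon list holds genes of the tendon program, and which of them are targets of Scx was not examined. Of these genes, 15 were kept. With PyMT in Ets2-present fibroblasts 4 were higher and 11 lower, 6 of them by at least 2-fold, and in Ets2-null fibroblasts 7 were higher and 8 lower, 5 of them by at least 2-fold, against 6.23% of kept genes with Ets2 and 11.2% without. The medians were -0.11 with Ets2 and -0.79 without, against -0.01 and 0.05 over all kept genes. Thbs4, a matrix protein of tendon, was at 3.53 in PyMT Ets2-null, 3.47 in PyMT Ets2-present, 8.17 in normal Ets2-null and 9.96 in normal Ets2-present fibroblasts, and Chodl at 3.47 in PyMT Ets2-null, 3.28 in PyMT Ets2-present, 7.16 in normal Ets2-null and 5.94 in normal Ets2-present fibroblasts. Both were low in the PyMT arrays, like Scx. Dcn, a collagen-binding proteoglycan, had log2 differences of -2.41 without Ets2 and -1.11 with Ets2.

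Tnmd, the tendon membrane protein that Scx activates, did not keep the order of Scx. It had 6.20 in PyMT Ets2-null, 5.70 in PyMT Ets2-present, 4.25 in normal Ets2-null and 8.46 in normal Ets2-present fibroblasts, so that it was lowest where Scx was highest. The collagen genes of the list, Col1a1 and Col1a2 among them, were below 2-fold in every comparison except Col12a1 and Col14a1. Of 6 kept basic helix-loop-helix genes of mesoderm, the family of Scx, 1 was higher and 5 were lower with PyMT in Ets2-present fibroblasts. In Ets2-null fibroblasts 2 were higher and 4 lower. Of all kept genes, 49.5% were higher with Ets2 and 52.4% without. By at least 2-fold, 1 was higher and 0 lower with Ets2, against 5.42% and 6.23% of kept genes. That was Tcf15 (1.61, or 0.29 with low values raised), kept only through the PyMT Ets2-present array. Without Ets2, 1 was higher and 1 lower by at least 2-fold, against 9.69% and 11.2%. Msc was at 1.73 and Hand2 at -1.34 there, each with a low value on the lower side (1.08 and -0.74 with low values raised). Of 7 cartilage markers, all but Sox9 were low in all arrays.

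**Figure D5:**
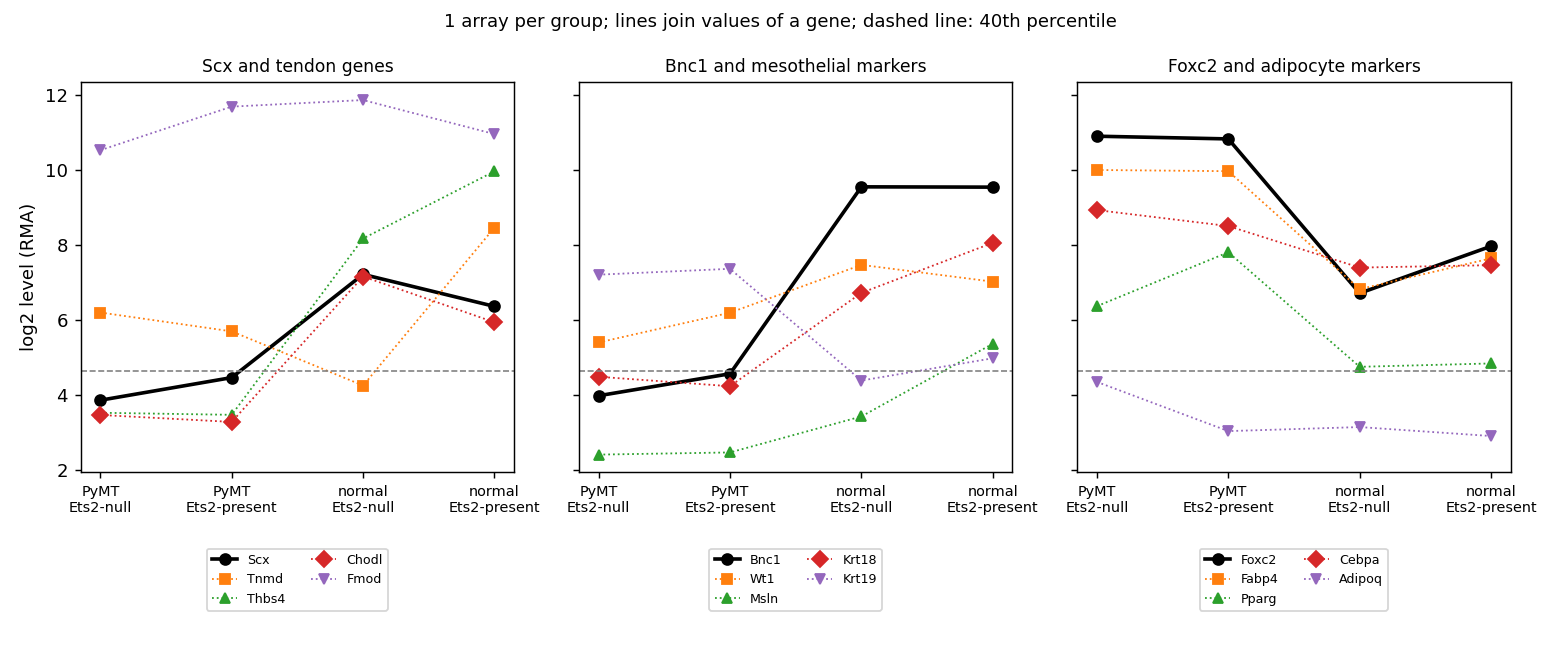
Log2 RMA level (vertical axis) in the 4 arrays (horizontal axis, 1 array each) of Scx with 4 tendon genes, Bnc1 with 4 mesothelial markers and Foxc2 with 4 adipocyte markers; lines join the values of a gene and the dashed line is at 4.63. Thbs4 and Chodl are low in both PyMT arrays as Scx is, Tnmd is not, and Fabp4 follows the order of Foxc2 while Adipoq stays low.

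The kept genes whose profiles over the 4 arrays were nearest to each regulator were found by the root mean square difference of profiles centred on their own means, in log2 units. For Meox2 these were Calcrl, the receptor partner of adrenomedullin (0.15), Adamts5, a protease of proteoglycans (0.17), and Mcam, a pericyte and endothelial adhesion molecule (0.26). Scx was closest to Clip4 (0.10), Pnoc (0.17) and Satb1 (0.19), and Lhx8 to Nrep (0.18), Zg16 (0.24) and Saa1 (0.31). Eya4 came nearest to Ern2 (0.21), Dixdc1 (0.22) and Gpr108 (0.22), and Dlx2 to Tex15 (0.31), Ripor2 (0.35) and Krt20 (0.38). The distances of Foxc2, to Fabp4 (0.42), Rnf128 (0.47) and Krt19 (0.52), and of Bnc1, to S100g (0.42), Dmrt2 (0.50) and Sfrp2 (0.52), were larger. Some of these genes had low values: Zg16, Saa1 and Ern2 in 3 arrays, Pnoc, Dixdc1, Tex15, Krt20, S100g and Dmrt2 in 2, and Clip4, Ripor2 and Krt19 in 1. A likeness over 4 arrays is a description of these arrays alone.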

How the data were processed

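Total RNA of cultured mammary fibroblasts was hybridised to Affymetrix mouse arrays, 1 array for each of 4 groups taken from the labels. The deposited values are log2 levels per probe set, made by the authors with RMA (version not given); which arrays were normalized together is not given in the sources used here. Probe sets were named from the platform annotation, which gives 1 gene for 20393, several for 691 and none for 1606; 20364 matched RefSeq by Entrez ID and 0 symbols changed. Each gene took the values of the probe set with the highest mean, and was kept if its highest value reached the 40th percentile of all values. Array numbers, not depth, limit the precision. Log2 differences between arrays were taken with no test, as a group has 1 array; the calculation was tested on simulated data. The alternatives were raising low values, averaging probe sets, quantile or cyclic loess normalization (limma 3.58.1, R 4.3.3), a filter at the 60th percentile and none. The 7 genes, the related lists and the markers were chosen with earlier results of these data known. The text names all 7, from the lists some of the genes at least 2-fold apart (at most 4 per direction and comparison, largest first), defining markers and the 3 nearest profiles.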

Additional observations from a re-analysis of the deposited data

Results flagged for a closer look

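The Ets2 difference of Meox2 ran in opposite directions in the 2 settings, 1.27 in PyMT and -1.53 in normal fibroblasts on the log2 scale, and the values lie 2.80 apart. That of Eya4 did the same, with 1.38 in PyMT and -1.97 in normal fibroblasts, 3.35 apart. Each setting holds 1 Ets2-null and 1 Ets2-present array, so the difference between settings was not tested. Both rest in part on low values. With these raised, the Meox2 difference in normal fibroblasts was -0.15, and that in PyMT fibroblasts was 0.92 with its probe sets averaged. With low values raised, the Eya4 differences lay 2.17 apart and each stayed past 2-fold.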

How the results depend on the processing

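The 205 differences of single genes recomputed under 6 alternatives were set against the SD of the probe disagreement over all 3378 genes. For the Ets2 difference this SD was 0.68 in PyMT and 0.48 in normal fibroblasts. It was 0.51 for the PyMT difference with Ets2, 0.70 without Ets2 and 0.86 for the subtraction. Of the 205, 198 moved by less than this SD and 7 by more, all with low values raised to the 40th percentile. After being past 2-fold, 0 changed sign. The 7 belong to Meox2, Eya4 and Scx. Many of the 198 could not move. The filter at the 60th percentile (30 differences) and no filter (35) leave the values of a gene unchanged. Averaging probe sets can change Meox2 alone, the only one of the genes with 2 probe sets. The 198 therefore overstate how stable the differences are. Of those past 2-fold, 3 fell under it: Meox2 for Ets2 loss in normal fibroblasts (-0.15) and Scx in the subtraction (-0.85), both with low values raised, and Meox2 for Ets2 loss in PyMT fibroblasts (0.92) with its probe sets averaged. Counts of the 7 genes past 2-fold stayed within 1.5 times their value under every alternative run. The filter at the 60th percentile removed Eya4. No paired analysis was possible because each group has 1 array and the labels carry no replicate numbers, and for the same reason no array could be left out. Detection calls and probe-level signals over background were not analysed here, so a level under 4.63 marks only the lower part of the table.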
